A study of Caenorhabditis elegans with 10 samples.

Results

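Nuclear hormone receptors are transcription factors that bind DNA through a pair of zinc fingers and, in many cases, bind a small lipid-like molecule through a separate ligand-binding domain. The nematode Caenorhabditis elegans carries a greatly expanded family of them, most of which are related to the vertebrate receptor HNF4 and are named with the prefix nhr. In this worm, receptors whose role is known act mainly in fat and sterol metabolism, the response to foreign compounds and pathogens, moulting and development, and many act in the intestine. The ligand and targets of most family members are not known.

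The family was read here as 249 genes, out of 17118 genes named by probe sets that list 1 gene. They are the genes whose symbol in the platform annotation is nhr followed by a number, leaving out nhr-13, nhr-49, nhr-57, nhr-66 and nhr-80, with 1 probe set per gene, the brightest on average over all 10 arrays. RefSeq lists 283 genes with an nhr symbol, and all 249 matched a RefSeq gene, 11 of them as pseudogenes. With the 5 genes that the rule leaves out, the counts given below would be 40 higher and 3 lower of 254 in place of 39 and 3 of 249.

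Total RNA of whole young adult worms was hybridised to Affymetrix whole-genome arrays, 1 array per biological replicate. One group of 5 carried gas-1 (fc21), a missense allele of a complex I subunit gene, which impairs entry of electrons into the mitochondrial respiratory chain. The other group of 5 was the N2 (Bristol) wild type, and both were grown on OP50 bacteria, synchronised by bleaching and sorted by size as living adults. The study asked which metabolic pathways change downstream of the mutation. Values are log2 intensities as deposited, so a difference of 1 is a 2-fold change, and differences are mutant minus wild type. A gene is said to have risen or fallen, or to be called, at a limma adjusted p under 0.05, adjusted over all 22548 probe sets tested.

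The transcript of gas-1 itself was at 11.11 ± 0.21 in mutant and 10.44 ± 0.19 in wild-type worms (SD, n = 5). It rose by 0.67 (SE 0.12, 1.59-fold, limma adjusted p = 0.00567), and the groups did not overlap. Since fc21 is a missense allele, this level does not check the labels. Yolk protein genes, which mark adult hermaphrodites, were bright on all arrays (mean of 4 vit genes 13.32 to 13.76). Array medians were between 6.22 and 6.61. Some arrays stood apart from their group. Across probe sets, mutant replicates 4 and 5 correlated at 0.977 to 0.982 with mutant replicates 1 to 3, which correlated at 0.992 to 0.995 among themselves. Wild-type replicates 2 to 4 correlated at 0.995 to 0.996, replicate 1 at 0.972 to 0.974 with them, and replicate 5 at 0.978 to 0.979. Wild-type replicate 5 correlated at 0.954 with wild-type replicate 1. With mutant replicates 1 to 3 it correlated at 0.977 to 0.982, and with mutant replicates 4 and 5 at 0.966 and 0.969. The mean of 23 major sperm protein genes was 7.66 to 7.75 on mutant replicates 1 to 3, 11.10 to 11.20 on mutant replicates 4 and 5, 12.29 to 12.37 on the first 4 wild-type arrays and 9.45 on the fifth. By limma 0 of the 23 sperm genes were called, though all 23 were lower at an unadjusted p under 0.05. The mean of 8 moulting genes was 7.07 to 7.11 on mutant replicates 4 and 5 and 6.11 to 6.61 on the other 8 arrays. The part of these differences in the receptor results was not tested, but the counts and the main receptors are given below also without these 4 arrays. In RNA from whole worms, fewer cells of a type and less RNA per cell cannot be told apart.

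Receptor transcripts were dim. The median level over the 249 genes was 5.55 on the log2 scale, with quartiles of 4.81 and 6.56, against a median of 6.43 over all probe sets, and 64 of the 249 lay above that median. Background was judged from 32 control probe sets for bacterial and yeast sequences, whose array medians were 4.46 to 4.91 in the mutant, 5.31 on wild-type replicate 1 and 4.46 to 4.71 on the rest of that group. In mean, 204 receptors were above that level in mutant and 191 in wild-type worms, and 43 were above it in neither group. The single control probe sets spread widely, from 2.90 to 7.35 in mean, and 25 receptors were brighter than the brightest of them. For a dim receptor the level is therefore close to what a probe set without a target shows, and absence of the transcript cannot be read from it.

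Among the 249, the 5 brightest receptors were nhr-86, nhr-23, nhr-3, nhr-71 and nhr-8, while nhr-49 and nhr-66, which the rule leaves out, were at 10.01 and 9.45 in mean over all arrays. Brightness depends on the probe set, so the order is one of signals and not of transcript amounts. The brightest of the 249, nhr-86, which takes part in sensing a bacterial phenazine in the intestine, was at 9.44 ± 0.08 in mutant and 9.59 ± 0.11 in wild-type worms (SD, n = 5). That difference of −0.15 (SE 0.07) did not pass the test (limma adjusted p = 0.238). The relative of vertebrate ROR receptors nhr-23, needed for moulting, was at 8.89 ± 0.17 and 9.10 ± 0.10 (SD, n = 5), the difference being −0.21 (SE 0.09, adjusted p = 0.178). Of the other members of this bright set, nhr-3 and nhr-8 rose and nhr-71 fell.

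Many more receptors rose in the mutant than fell. Of the 249 genes 39 rose, or 15.7%, where 7.54% of all probe sets rose. Only 3 fell, or 1.20%, where 4.28% of all probe sets fell. The other 207 did not pass, with differences from −0.44 to 0.77. Of the receptors that rose, 11 did so at least 2-fold, which is 4.42% of the family against 1.98% of all probe sets. By mean level over all arrays, 5 of the 39 were brighter than the brightest background control probe set, as were 25 of the 249. The largest fall in the family was 1.71-fold. The 5 mutant arrays lay above the 5 wild-type arrays, with no overlap, for 33 receptors, or 13.3% against 8.27% of all probe sets, and below them for 4, or 1.61% against 4.67%.

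The whole distribution lay slightly towards the mutant. A positive difference was seen for 147 receptors, or 59.0%, and for 50.7% of all probe sets. The median difference was 0.05 over the receptors and 0.003 over all probe sets, and with centred array medians it was 0.0037 and −0.05. On each array, the median of the 249 receptors was 5.60 to 5.72 in mutant and 5.34 to 5.50 in wild-type worms, without overlap. Medians of all probe sets did overlap, at 6.37 to 6.58 and 6.22 to 6.61. The median of the background controls was highest on wild-type replicate 1, and that array held the lowest wild-type value for 16 of the 39 rising receptors.

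**Figure D1:**
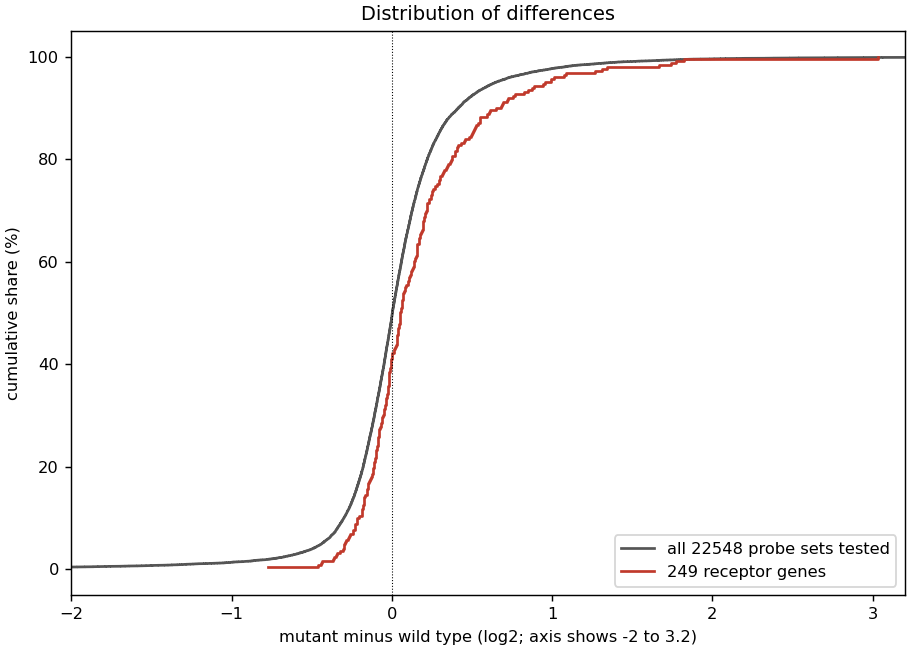
Cumulative share of differences (mutant minus wild type, log2) for the 249 receptor genes in red and all 22548 probe sets in grey. The red curve lies to the right of the grey one over most of the range, with medians of 0.05 and 0.003, and its left tail ends at −0.78.

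The balance of rises over falls did not rest on a single setting, while the number of falls did move. In all 20 alternative settings run, the share of receptors that rose was above that of all probe sets, by 1.68 to 2.46 times, and the share that fell was below it. Without the 4 arrays that stood apart, 49 receptors rose (19.7%, where 10.3% of all probe sets rose) and 12 fell (4.82%, where 11.2% of all probe sets fell). Of the 39 that rose on all arrays, 36 also rose without those 4, and the 3 that fell also fell. With array weights 55 rose, where 13.2% of all probe sets did, and 13 fell, where 11.2% did. When the dimmest 33% of probe sets were left out, 123 receptors remained, of which 34 rose (27.6%, against 12.1% of the probe sets kept) and 3 fell, where 7.57% of those kept fell. That filter used the mean over all 10 arrays, so a receptor that rose could be kept through its mutant values. The larger share of rises there could be partly built in and is not read as separate support.

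**Figure D2:**
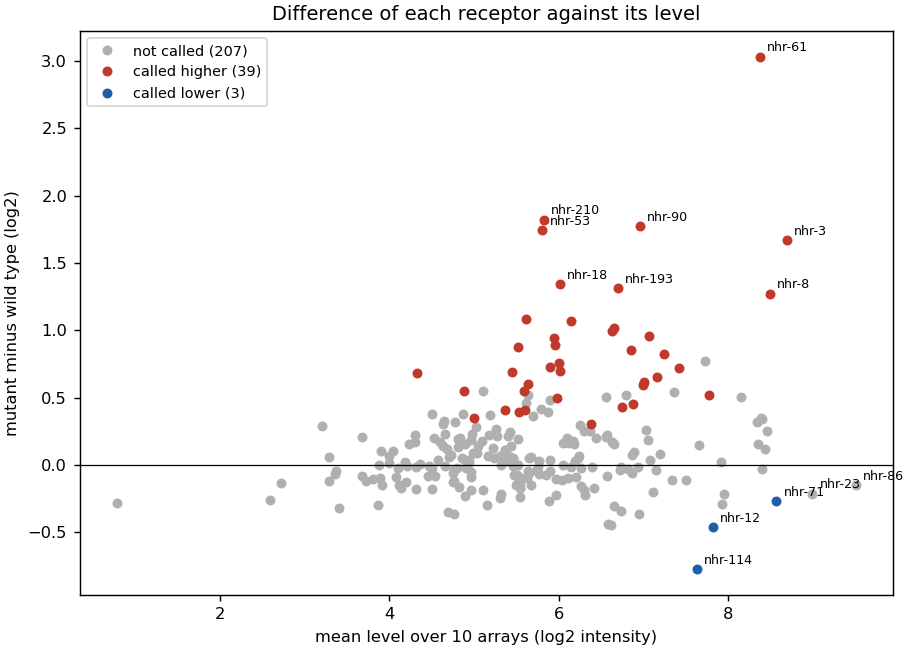
Difference of each of the 249 receptors (mutant minus wild type, log2) against its mean level over 10 arrays (log2 intensity), 1 point per gene. The 39 called higher (red) spread over levels from about 4 to 9, and the 3 called lower (blue) lie between 7.63 and 8.57.

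The largest change in the family was in nhr-61. It read 9.69, 9.72, 9.49, 10.32 and 10.25 on mutant replicates 1 to 5 and 6.79, 6.85, 6.81, 6.79 and 7.07 on wild-type replicates 1 to 5. Every mutant array was more than 2 log2 units above every wild-type array, and mutant replicates 4 and 5 were the highest. The means were 9.89 ± 0.37 and 6.86 ± 0.12 (SD, n = 5), the difference being 3.03 (SE 0.16, 8.18-fold, limma adjusted p = 2.11e-06). Without the 4 arrays that stood apart the difference was 2.82 (adjusted p = 7.43e-07). Its probe set carries the suffix that marks probes shared with other transcripts.

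Next came a set of 4 receptors that rose more than 3-fold. For nhr-210 the mutant arrays read 6.52, 6.86, 6.69, 6.76 and 6.84 and the wild-type arrays 5.07, 4.80, 4.88, 4.72 and 5.10, a difference of 1.82 (SE 0.10, 3.53-fold, adjusted p = 2.27e-06). The wild-type arrays lay close to the background controls, so the fold of nhr-210 is one against a level near background. For nhr-90 they read 7.62, 7.69, 7.56, 8.19 and 8.15 against 5.72, 6.13, 6.12, 6.14 and 6.25, a difference of 1.77 (SE 0.15, 3.41-fold, adjusted p = 4.88e-05). Here too mutant replicates 4 and 5 were the highest, and wild-type replicate 1 was the lowest of all.

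For nhr-53 the mutant arrays read 6.96, 6.45, 6.14, 6.78 and 7.05 and the wild-type arrays 4.06, 5.34, 4.99, 5.18 and 5.09. The groups did not overlap, but wild-type replicate 1 was far below the others, and the difference of 1.74 (SE 0.25, 3.35-fold, adjusted p = 0.00148) was 1.35 without the 4 arrays. The wild-type mean of nhr-53, 4.93, was near the background controls, and its probe set carries the shared-probe suffix. For nhr-3, 1 of the 5 brightest receptors, the mutant arrays read 9.54, 9.36, 9.19, 9.73 and 9.83 and the wild-type arrays 7.84, 7.80, 7.88, 7.78 and 8.0. Mutant replicates 4 and 5 were again the highest. The wild-type arrays of nhr-3 stayed close to each other, and the difference was 1.67 (SE 0.12, 3.18-fold, adjusted p = 1.43e-05). A dimmer probe set of nhr-3 gave 1.41 (SE 0.11, adjusted p = 1.95e-05), and both carry the shared-probe suffix.

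The receptor with the best described role in this group was nhr-8, a relative of DAF-12 and of the vertebrate vitamin D and liver X receptors. In worms it is needed for resistance to toxic compounds such as colchicine and for keeping cholesterol and dafachronic acid levels. It read 8.81, 9.16, 8.99, 9.31 and 9.38 on the mutant arrays and 7.42, 7.96, 7.96, 7.91 and 8.05 on the wild-type arrays. The groups were clearly apart, with wild-type replicate 1 lowest and mutant replicates 4 and 5 highest. The means were 9.13 ± 0.23 and 7.86 ± 0.25 (SD, n = 5), the difference being 1.27 (SE 0.14, 2.41-fold, adjusted p = 0.000333), and 1.04 without the 4 arrays (adjusted p = 0.000341).

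The remaining 5 receptors that rose at least 2-fold were nhr-18, nhr-193, nhr-120, nhr-79 and nhr-21. The groups did not overlap for any of them. The probe sets of nhr-79 and nhr-21 carry the shared-probe suffix. For nhr-193 the arrays were tight, at 7.36 ± 0.16 in mutant and 6.04 ± 0.16 in wild-type worms (SD, n = 5), the difference being 1.31 (SE 0.10, 2.49-fold, adjusted p = 2.27e-05). For nhr-18 they spread more, at 6.68 ± 0.35 and 5.34 ± 0.40 (SD, n = 5), the difference being 1.34 (SE 0.22, 2.54-fold, adjusted p = 0.00279). The differences of nhr-79, nhr-120 and nhr-21 were 1.07 (SE 0.12), 1.08 (SE 0.19) and 1.01 (SE 0.22). The wild-type mean of nhr-120, 5.08, was near the background controls. For nhr-18, nhr-120 and nhr-21 mutant replicates 4 and 5 were the highest of their group. Without the 4 arrays their differences were 1.24 (adjusted p = 0.00114), 0.72 (adjusted p = 0.0133) and 0.69 (adjusted p = 0.00305). That of nhr-79 was 1.13 without them.

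**Figure D3:**
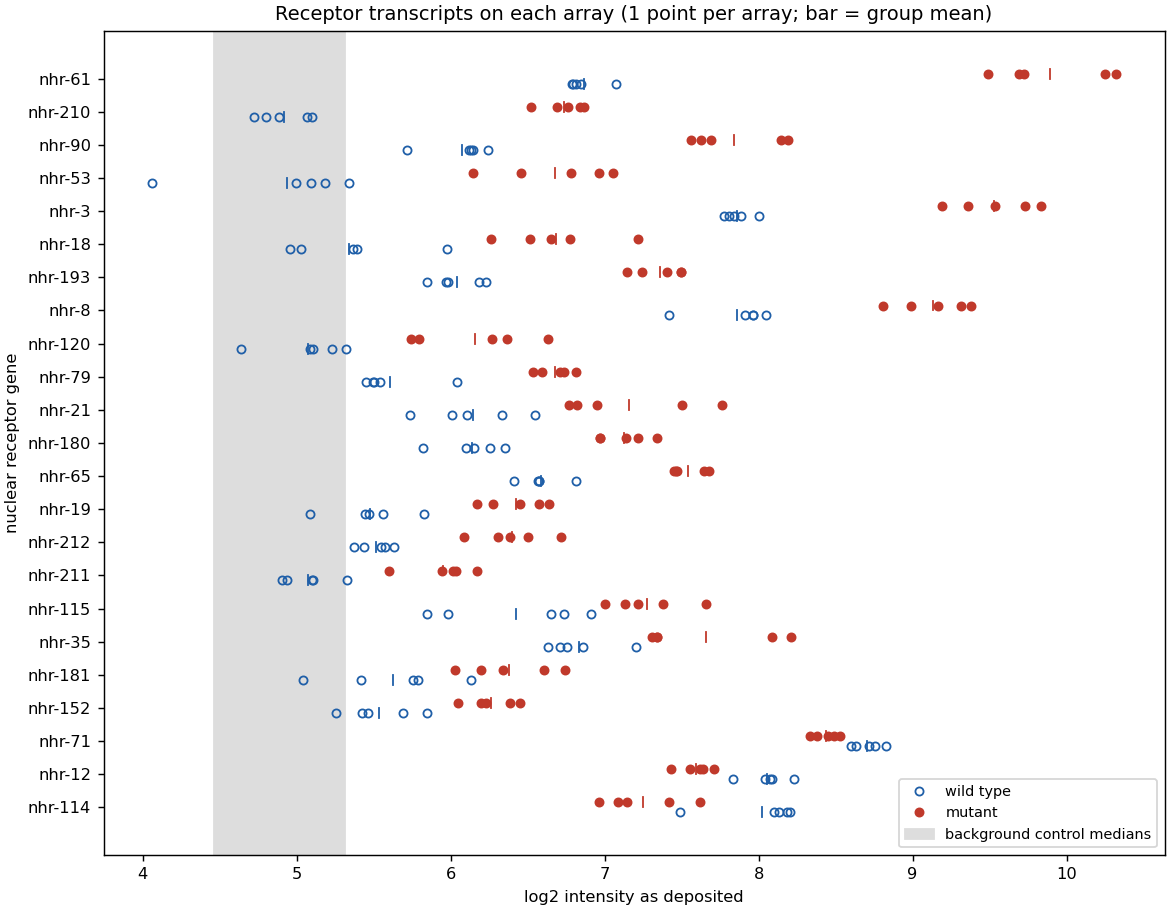
Log2 intensity of the 20 receptors with the largest rises and the 3 that fell, 1 point per array (red, mutant; blue rings, wild type), with group means as bars and the range of the background control medians (4.46 to 5.31) shaded. The groups overlap only for nhr-181 and nhr-114, and the wild-type values of nhr-210, nhr-53, nhr-120 and nhr-211 lie in or near the shaded range.

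Another 9 receptors were named for rises of 1.65-fold to 1.99-fold. They were nhr-180 (difference 0.99, SE 0.11), nhr-65 (0.96, SE 0.09), nhr-19 (0.95, SE 0.14), nhr-212 (0.89, SE 0.11), nhr-211 (0.88, SE 0.12), nhr-115 (0.85, SE 0.22), nhr-35 (0.82, SE 0.20), nhr-181 (0.75, SE 0.21) and nhr-152 (0.73, SE 0.12). Of these, 3 depended on single arrays. For nhr-35 mutant replicates 1 to 3 read 7.31 to 7.34 and replicates 4 and 5 read 8.21 and 8.09, and the call ended without mutant replicate 5 (adjusted p = 0.0584) or wild-type replicate 2, 3 or 4 (adjusted p = 0.0652, 0.0673 and 0.0711). For nhr-115 wild-type replicates 1 and 5 read 5.98 and 5.85 while the other wild-type arrays read 6.65 to 6.91, and the difference was 0.35 without the 4 arrays (adjusted p = 0.0383). Its call ended without any 1 of mutant replicates 1, 4 and 5 or wild-type replicate 1 (adjusted p from 0.0544 to 0.0709). The groups of nhr-181 overlapped, with wild-type replicate 5 at 6.13 above mutant replicate 4 at 6.03, and its call ended under quantile normalization (adjusted p = 0.0799), with centred array medians (adjusted p = 0.112) and without any 1 of mutant replicates 1, 2, 3 and 5 or wild-type replicates 1 to 4 (adjusted p from 0.0542 to 0.0976).

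The other 19 receptors that rose did so by 1.23-fold to 1.65-fold, or by 0.30 to 0.72 on the log2 scale. For 2 of them the wild-type mean was not above the background controls, so their size is uncertain, namely nhr-230 (5.15 in mutant and 4.605 in wild-type worms) and nhr-162 (4.67 and 3.99), which was not above them in the mutant either. Among the 19 was nhr-14, which in worms sets intestinal iron uptake and with it resistance to pathogens. It read 7.40, 7.12, 7.21, 7.38 and 7.37 on the mutant arrays and 6.83, 6.71, 6.63, 6.61 and 6.73 on the wild-type arrays, a small rise with tight replicates (0.59, SE 0.08, 1.51-fold, adjusted p = 0.00091). Without the 4 arrays the difference was again 0.59 (adjusted p = 0.00331). Also among them was nhr-176, known in worms to be needed for induction of the cytochrome P450 gene cyp-35D1 by a drug. It was dim, at 5.73 ± 0.12 and 5.34 ± 0.13 (SD, n = 5), and rose by 0.39 (SE 0.09, 1.31-fold, adjusted p = 0.0148). That call ended under the centring of array medians (adjusted p = 0.112) and without mutant replicates 4 and 5 together (adjusted p = 0.0576).

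The receptor with the largest fall was nhr-114, which in worms protects the germ line from a diet poor in certain nutrients and acts on the methionine and S-adenosylmethionine cycle. It read 7.14, 7.42, 7.62, 6.96 and 7.09 on the mutant arrays and 8.20, 8.13, 8.19, 8.10 and 7.49 on the wild-type arrays. Wild-type replicate 5 lay below mutant replicate 3, so the groups overlapped by these 2 arrays. The means were 7.25 ± 0.27 and 8.02 ± 0.30 (SD, n = 5), the difference being −0.78 (SE 0.17, 1.71-fold lower, adjusted p = 0.0132). Without the 4 arrays it was −0.75 (adjusted p = 0.00473), and without mutant replicates 4 and 5 alone it was −0.63 and not called (adjusted p = 0.0797).

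For nhr-12 the mutant arrays read 7.62, 7.71, 7.55, 7.43 and 7.64 and the wild-type arrays 7.84, 8.07, 8.09, 8.04 and 8.23, a difference of −0.46 (SE 0.09, 1.38-fold lower, adjusted p = 0.00675). For nhr-71 they read 8.33, 8.45, 8.38, 8.53 and 8.49 against 8.60, 8.72, 8.75, 8.63 and 8.83, a difference of −0.27 (SE 0.07, 1.21-fold lower, adjusted p = 0.0324). In both the groups were apart, by small margins. The call of nhr-71 ended without any 1 of mutant replicates 1, 2, 3 and 5 or wild-type replicates 2, 3 and 4 (adjusted p from 0.0540 to 0.0861), and with centred array medians (adjusted p = 0.106).

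**Figure D4:**
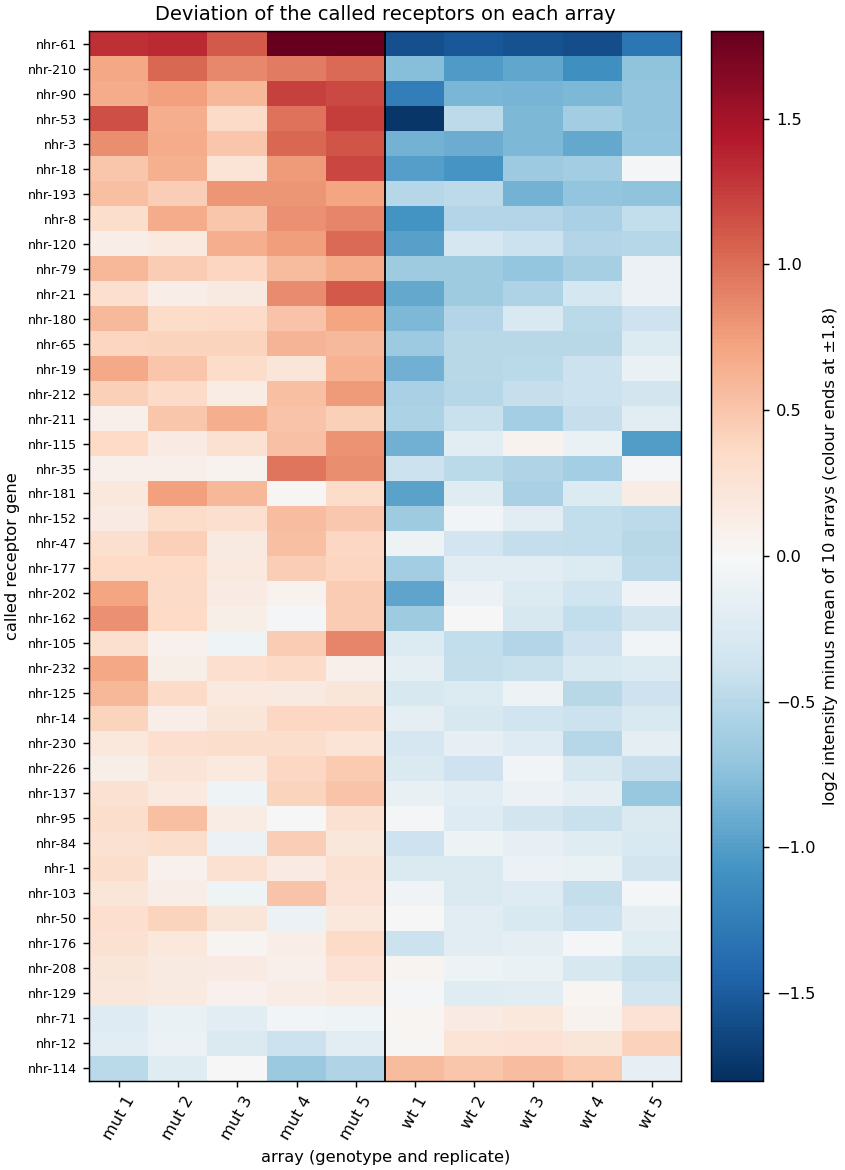
Deviation of each called receptor from its mean over 10 arrays (log2), with genes in rows from the largest rise to the largest fall and arrays in columns (mut, mutant; wt, wild type). The 39 rising receptors are mostly red on the 5 mutant arrays and blue on the 5 wild-type arrays, the palest wild-type column among them is often replicate 5, and the darkest is often replicate 1.

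The replicates did not move evenly within a group. Among the 39 rising receptors, mutant replicate 5 held the highest mutant value for 15 and replicate 4 for 11. Wild-type replicate 5 held the highest wild-type value for 17, and replicate 1 the lowest for 16. Matching shares over all probe sets that rose are not given for these counts, so they are not read as particular to receptors. Mutant replicates 4 and 5 were both above replicates 1 to 3 for 17 of the 39, or 43.6%, and the same was true of 55.5% of all probe sets that rose. Over the 249 receptors the median SD within a group was 0.19 in mutant and 0.24 in wild-type worms, against 0.17 and 0.21 over all probe sets.

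Of the 12 measured receptors with a described role in metabolism, foreign compounds or stress, 3 rose (nhr-8, nhr-14 and nhr-176), 1 fell (nhr-114) and 8 did not pass, with a median difference of 0.37. Of all 249 receptors 16.9% were called, as were 11.8% of all probe sets, and the difference of this set from the other receptors was not tested. The 8 included nhr-69 at 0.52 (SE 0.15, adjusted p = 0.0514), nhr-64, a regulator of fat and membrane lipids, at 0.54 (SE 0.18, adjusted p = 0.0876), and nhr-31, which acts in the excretory tubule, at 0.50 (SE 0.18, adjusted p = 0.106). The partners nhr-10 and nhr-68, which in worms switch on the propionate shunt when the canonical pathway cannot work, were at −0.22 (SE 0.15) and 0.12 (SE 0.11). Of these 8, 4 did pass without the 4 arrays, nhr-10 at −0.53 (adjusted p = 0.00856), nhr-31 at 0.27 (adjusted p = 0.0231), nhr-69 at 0.36 (adjusted p = 0.0435) and nhr-76 at −0.32 (adjusted p = 0.0365), and these 4 and nhr-64 (adjusted p = 0.0205) also passed with array weights. With centred array medians nhr-31, nhr-69 and nhr-76 passed (adjusted p = 0.0488, 0.0345 and 0.0456). Of all probe sets, 10.3% were called higher and 11.2% lower without the 4 arrays. The shares were 13.2% and 11.2% with array weights, and 5.70% and 4.83% with centred array medians. These counts in so small a set are not read as a difference from those shares. A receptor of serotonin-driven fat loss, nhr-76, was at −0.36 (SE 0.15), and nhr-88 at 0.35 (SE 0.20). No value is given for nhr-33 and nhr-62, since no probe set under the rule names either.

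By limma 0 of the 8 receptors with a described role in development, moulting or cell fate passed the test, where 11.8% of all probe sets did, and 2 of the 8 were at an unadjusted p under 0.05. They were nhr-2, active in embryos, at 0.02 (SE 0.11), nhr-6, an NR4A relative needed in the spermatheca, at 0.17 (SE 0.15), nhr-25, an SF-1 relative of the epidermis and gonad, at 0.41 (SE 0.20), and nhr-67, a tailless relative, at 0.38 (SE 0.12, adjusted p = 0.0640). The others were nhr-23 (value above), nhr-40 at −0.11 (SE 0.12), nhr-60 of the epidermis at −0.09 (SE 0.14) and nhr-85, a Rev-Erb relative with timed larval expression, at −0.17 (SE 0.21). With array weights 3 of the 8 did pass, nhr-23 at −0.28 (adjusted p = 0.0162), nhr-60 at −0.34 (adjusted p = 0.0385) and nhr-67 at 0.28 (adjusted p = 0.0487). That fit called 13.2% of all probe sets higher and 11.2% lower, and 3 of 8 is not read as a difference from those shares. The value of nhr-60 was −0.41 and passed without the 4 arrays (adjusted p = 0.0132), and nhr-67 passed without mutant replicate 3 (adjusted p = 0.0364). Several were dim, with nhr-67 at 4.68 in the wild type, so a change in a few cells would not be seen in RNA from whole worms. Among the 9 relatives of receptors conserved across animals, which share 5 genes with this set, nhr-8 rose and 8 did not pass. The 3 not yet given were nhr-41 at −0.23 (SE 0.15), nhr-48 at −0.15 (SE 0.13) and nhr-91 at 0.16 (SE 0.09).

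**Figure D5:**
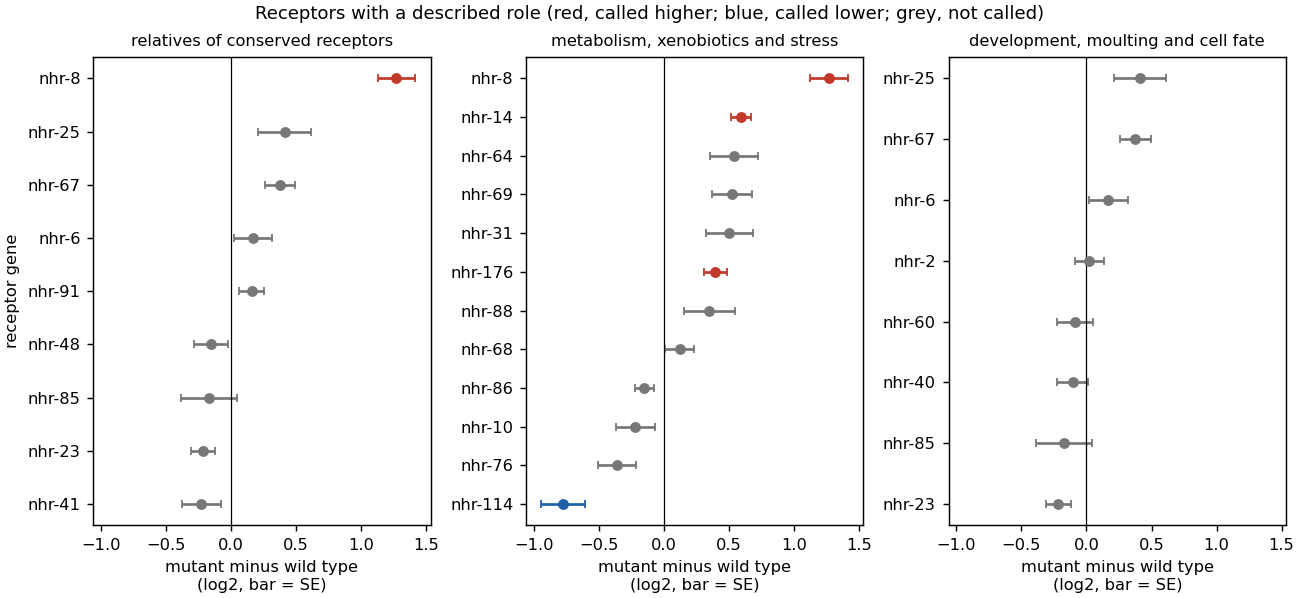
Difference (mutant minus wild type, log2) with its SE for the receptors of 3 role sets, each gene on a line of its own, in red where called higher, blue where called lower and grey where not called. The metabolic set reaches from −0.78 for nhr-114 to 1.27 for nhr-8, and the developmental set stays between −0.21 and 0.41.

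Of 5 nuclear receptors that do not carry an nhr name, limma called 0, where it called 11.8% of all probe sets. At an unadjusted p under 0.05 there were also 0. They were daf-12, the receptor for dafachronic acids, at 0.08 (SE 0.12), sex-1 at 0.44 (SE 0.21), unc-55 at 0.32 (SE 0.18), fax-1 at −0.12 (SE 0.10) and odr-7 at −0.15 (SE 0.15). Of 10 cofactor genes limma called 0, beside the same 11.8%, with 2 at an unadjusted p under 0.05. Counts of 0 in sets this small are not read as a difference from that share. Among them the Mediator subunit gene mdt-15, a partner of several fat-regulating receptors, was at 8.18 ± 0.22 in mutant and 7.90 ± 0.20 in wild-type worms (SD, n = 5, difference 0.28, SE 0.13, adjusted p = 0.191). The corepressor genes gei-8 and din-1 were at 0.05 (SE 0.11) and −0.07 (SE 0.12).

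Genes known in worms in connection with receptors named above, and genes of iron handling, were set beside those receptors. The immune effector genes irg-4 and irg-5, known with nhr-86, both fell, irg-4 from 8.45 ± 0.25 to 7.22 ± 0.38 (SD, n = 5, difference −1.23, SE 0.19, adjusted p = 0.00194) and irg-5 by 0.53 on the log2 scale (SE 0.10, adjusted p = 0.00829), while nhr-86 itself did not pass. Of 3 iron genes the ferritin gene ftn-2 fell by 0.68 (SE 0.10, adjusted p = 0.00146), and ftn-1 and the iron importer gene smf-3 were at 0.30 (SE 0.30) and 0.52 (SE 0.17, adjusted p = 0.0746). The P450 gene cyp-35D1 was at −0.07 (SE 0.19). In the propionate shunt, hach-1 fell by 0.54 (SE 0.12, adjusted p = 0.0168) and the other 4 genes did not pass, acdh-1 being at −0.39 (SE 0.21).

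The lists above and those that follow are small, and their counts stand beside the 11.8% of all probe sets that were called. Of 7 genes of sterol and dafachronic acid handling limma called 0, with 2 at an unadjusted p under 0.05, the dafachronic acid synthesis gene daf-36 being at 0.31 (SE 0.10, adjusted p = 0.0760) and the sterol transporter gene ncr-1 at 0.38 (SE 0.14, adjusted p = 0.102). Of 18 vacuolar ATPase genes vha-6, an intestinal subunit, rose by 0.55 (SE 0.14, adjusted p = 0.0269). Of 8 moulting genes the protease gene nas-37 rose by 0.45 (SE 0.11, adjusted p = 0.0197). A positive difference was seen for 7 of the 8, and for 50.7% of all probe sets. The mean of the 8 was 6.27 to 6.33 on mutant replicates 1 to 3, within the wild-type range of 6.11 to 6.61, and 7.07 to 7.11 on mutant replicates 4 and 5. Of 3 zinc genes limma called 0, with 2 at an unadjusted p under 0.05, and cdf-2 was at 0.35 (SE 0.12, adjusted p = 0.0803). Of 25 marker genes for yolk, embryo, intestine, muscle, neurons and hypodermis 1 was called, the neuronal gene snb-1 at 0.34 (SE 0.08, adjusted p = 0.0195).

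A second look at single receptors came from genes with several probe sets. There were 31 such receptors, and for 23 of them all probe sets had a difference of the same sign. The chosen probe set was called for 7 of the 31, and for nhr-3, nhr-47, nhr-50 and nhr-65 every probe set was called in the same direction. For nhr-65 the probe sets gave 0.96 and 1.16, and for nhr-47 they gave 0.72 and 0.91. For nhr-1 the brighter probe set was called (0.43, SE 0.08, adjusted p = 0.00428) and the dimmer was at 0.01. For nhr-230 they gave 0.55 and 0.21, and for nhr-71 −0.27 and −0.17, with the second of each not called. In 5 receptors, named after their values were seen, the chosen probe set was not called but a dimmer one was. They were nhr-28 (0.18 on the chosen and 0.76 on the dimmer probe set), nhr-34 (0.34 and 0.68), nhr-88 (0.35, and 0.44 and 0.34 on the dimmer ones called), nhr-92 (0.26 and 0.49) and nhr-112 (0.06 and 0.78). Shared-probe suffixes were carried by 25 of the 249 chosen probe sets and by 7 of the 42 called ones. Of these 7, nhr-61, nhr-53, nhr-3, nhr-79 and nhr-21 are among the receptors that rose at least 2-fold, and the others are nhr-47 and nhr-50.

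Many receptor genes are neighbours in the genome. In the RefSeq gene order of WBcel235, 107 receptors, or 43.0%, lie directly next to another receptor of the set, counting protein-coding genes and pseudogenes. Of the 39 that rose 17 do so, or 43.6%. There were 73 neighbouring pairs. Both partners rose in 4 of them, nhr-212 with nhr-211 (0.89 and 0.88), nhr-103 with nhr-18 (0.41 and 1.34), nhr-115 with nhr-226 (0.85 and 0.55) and nhr-65 with nhr-230 (0.96 and 0.55). In 17 pairs 1 partner rose and the other did not, as with nhr-90 at 1.77 beside nhr-250 at −0.23 and nhr-53 at 1.74 beside nhr-199 at 0.20.

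The 11 receptors that RefSeq lists as pseudogenes had mean levels of 2.59 to 6.04 and differences of −0.36 to 0.37. By limma 0 of the 11 were called, where 11.8% of all probe sets were, and 2 were at an unadjusted p under 0.05. A count of 0 in so small a set is not read as a difference from that share. Probe sets that name several genes stayed outside the set. There were 14 that name a receptor, of which 3 were called higher and 1 lower, where 7.54% and 4.28% of all probe sets were. The receptor behind such a signal cannot be told.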

How the data were processed

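Total RNA of 5 mutant and 5 wild-type samples was hybridised to 1 array each, from 1 µg of RNA per the labels' protocols. The deposited values were read as log2 intensities from their range. No label names their scale, nor how background, probe summary or normalization were handled. They were used as deposited, since array medians lay within 0.5 of each other. After 77 control probe sets were left out, 22548 went into 1 fit of limma 3.58.1 (R 4.3.3), through lmFit and eBayes, 2-sided and with genotype as the only term, with Benjamini-Hochberg adjustment over all of them, and the fit was tested on simulated data. The number of arrays limits the precision.

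Gene names came from the platform annotation, with 20766 probe sets naming 1 gene, 887 several and 895 none listed here. No sequences or coordinates are given, and RefSeq (WBcel235) served only for names, gene types and gene order. Nothing in the labels gives a batch. The labels call the samples biological replicates without saying that they came from separate cultures, so p-values measure the spread between these samples.

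The members and gene lists were chosen with earlier results of these data known. Named were gas-1, the 20 largest rises and all falls among called members, the 5 brightest, and members of the role lists, with up to 4 called genes of each other list. The 4 arrays that stood apart were chosen after seeing the data. Of the control probe sets, 12 with a numeric name, up to 13.2 in mean, were kept out of the background after their values were seen. Alternatives were centred array medians, quantile normalization, array weights, an intensity trend with robust hyperparameters, the mean of a gene's probe sets, a filter on dim probe sets, a replicate block, and leaving out arrays. No 2 arrays held the same values, since at most 0.284% of values were equal between any pair.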

Additional observations from a re-analysis of the deposited data

Results flagged for a closer look

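Each receptor named by the rule was looked at within each group of 5 arrays for a single value far from the other 4 (Dixon's test), 88 groups in all. Chance gives such a value in about 1 group in 20, and 11 were found, of which 10 were in the wild type and 1 was in the mutant. Wild-type replicate 1 held 5 of them, at 5.72 for nhr-90, 4.06 for nhr-53, 7.42 for nhr-8, 6.83 for nhr-48 and 6.54 for nhr-85. It was low for the first 3 of these and high for the last 2. Wild-type replicate 5 held 4, at 7.07 for nhr-61, 6.04 for nhr-79, 7.49 for nhr-114 and 7.92 for nhr-88. On nhr-61, nhr-79 and nhr-114 this array lay nearer to the mutant than the other wild-type arrays did, and on nhr-88 farther. The last 2 values were 6.83 for nhr-6 on wild-type replicate 2 and 6.91 for nhr-76 on mutant replicate 4. Wild-type replicates 1 and 5 also stood apart from their group across all probe sets, and the cause was not tested.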

How the results depend on the processing

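On all arrays 39 receptors rose and 3 fell. Leaving out each array in turn gave 28 to 43 rises and 2 to 4 falls. In those fits 5.22% to 8.28% of all probe sets rose and 2.12% to 7.14% fell. Falls numbered 13 with array weights and 12 without the 4 arrays that stood apart, where 11.2% of all probe sets fell in each. Leaving out the dimmest 50% of probe sets left 64 receptors, of which 20 rose, where 15.2% of the probe sets kept did so. The median receptor difference was 0.162 there and 0.156 without the dimmest 33%, beside 0.0211 and 0.015 over the probe sets kept. Fewer receptors were tested there, and a rise in the mutant could itself keep a dim receptor, since these filters used the mean over all 10 arrays. With centred array medians the median receptor difference was 0.0037, beside −0.0471 over all probe sets. Deviations of same-numbered arrays from their group means correlated at −0.175 to 0.098. Arrays of different numbers were not compared in this way, so this does not settle whether the arrays pair by number. With the replicate block 29 receptors rose and 2 fell, where 4.74% and 1.64% of all probe sets did. That block ended the calls of gas-1, nhr-115, nhr-181, nhr-71 and nhr-176. Of the 23 receptors named for a rise or a fall, 18 kept direction and call under all alternatives run, and 0 changed sign. Some receptors that were not called did change sign. The nhr-2 difference (0.02) was −0.027 with centred medians, −0.087 with quantile normalization, −0.021 without the 4 arrays, −0.081 without mutant replicates 4 and 5, and −0.050 to 0.094 with single arrays left out. Without the 4 arrays nhr-6 was at −0.102, nhr-48 at 0.043, nhr-85 at 0.0113 and nhr-88 at −0.0543. Without mutant replicates 4 and 5 nhr-6 was at −0.0349, and nhr-85 (−0.17) ranged from −0.256 to 0.053 with single arrays left out, the highest being without wild-type replicate 1. The cause of these shifts was not tested. Dim receptors near the background controls are the least certain, and with the 12 numerically named controls added 163 receptors were above background in mutant and 151 in wild-type worms.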

Other observations

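A pair of receptors, chosen after their values were seen, followed the arrays that stood apart more than the genotype. For nhr-17 the mutant arrays read 7.50, 7.52, 7.42, 8.95 and 9.16 and the wild-type arrays 7.17, 7.29, 7.14, 7.12 and 7.97. Mutant replicates 4 and 5 and wild-type replicate 5 were the highest of their groups, and the difference of 0.77 was not called by limma (adjusted p = 0.233). Without the 4 arrays it was 0.29 (adjusted p = 0.0325). For nhr-130 the mutant arrays read 8.27, 8.31, 8.20, 9.15 and 8.98 and the wild-type arrays 8.54, 8.52, 8.64, 8.53 and 7.44. The difference of 0.25 (adjusted p = 0.639) became −0.31 without the 4 arrays (adjusted p = 0.0227).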
